A study of Homo sapiens with 8 samples.

Results

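Transcript levels of 40 genes of mitosis and the spindle were followed in NB4 and MM6 (MonoMac 6) cells, both established human acute myeloid leukaemia lines. The members were taken by symbol from a named list, and all 40 were found among the 16726 genes of both deposited tables. NB4 is known as a line of promyelocytes and MM6 as a line of monocytes; the tumor label reads acute monocytic leukemia in either case. The 4 groups, with 2 libraries each, were NB4 shNS, NB4 shM14, MM6 shNS and MM6 shM14. shM14 is a hairpin against METTL14 (labelled shM14-#2), which together with METTL3 places N6-methyladenosine on RNA, and shNS is a non-specific hairpin. All 8 libraries came from cells transduced with a pLKO.1 lentivirus and kept in 0.5 µg/mL puromycin over 2 passages, controls included. A single METTL14 hairpin was used, so other effects of that hairpin and those of METTL14 loss cannot be told apart. Whether the replicates came from separate cultures is not stated in the labels, and p-values therefore measure only the spread between these libraries, which may be technical.

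Cells enter mitosis when CDK1, bound to cyclin B, is activated by CDC25 phosphatases. The spindle then attaches to kinetochores, which are built on centromeres marked by the histone variant CENPA, and the spindle checkpoint holds back the anaphase-promoting complex until the chromosomes are attached. Destruction of securin and cyclin B starts anaphase, and the central spindle and a contractile ring divide the cell. Most of these genes are transcribed late in the cell cycle, from promoters known for the cell cycle genes homology region (CHR), which MuvB complexes with MYBL2 and FOXM1 contact, and for CCAAT boxes, which NF-Y binds. Their summed level is widely used as a sign of proliferation.

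The stretch before the start of these genes was read first, because promoters of mitotic genes are known for these shared motifs. RefSeq sequences on GRCh38.p14 matched 33 of the 40 members. In the 250 bases before the start, the CHR letters TTTGAA or TTCGAA were found on either strand in 20 of 33 members (60.6%), against 17.2% of the 27305 genes in the same table. CCAAT was found on either strand in 27 of 33 (81.8%), against 37.0% of all genes, and both motifs in 18 of 33 (54.5%), against 7.38%. Where a gene has several starts, a match before any of them was counted. Of the members that rose in NB4, described further on, 9 of 14 held the CHR letters and 13 of 14 held CCAAT. Of the other members the counts were 11 of 19 and 14 of 19, and these shares were not tested against each other. A match is a description of letters and does not show a bound site.

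The sequences of CENPA and MKI67, the members with the largest rise in NB4, and of CENPE and NUF2, the members that fell there, are given 5′ to 3′ with both motifs in capitals. They were chosen after their values were seen, and the 2 members that fell hold neither motif in this window. KIF2C, which did not pass in NB4, holds neither motif as well. At least 1 motif was found in 29 of 33 members, so those named here are not all of the members without one. A link between motif and change was not tested. In MKI67 the last capitals are a TTTGAA that overlaps by 1 base an ATTGG, which is CCAAT on the other strand.
CENPA (chr2:26785806-26786055, plus strand): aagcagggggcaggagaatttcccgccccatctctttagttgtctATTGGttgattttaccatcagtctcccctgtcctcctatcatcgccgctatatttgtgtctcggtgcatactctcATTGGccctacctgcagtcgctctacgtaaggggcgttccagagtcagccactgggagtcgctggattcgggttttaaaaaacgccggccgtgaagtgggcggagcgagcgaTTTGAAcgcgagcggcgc
MKI67 (chr10:128126424-128126673, minus strand): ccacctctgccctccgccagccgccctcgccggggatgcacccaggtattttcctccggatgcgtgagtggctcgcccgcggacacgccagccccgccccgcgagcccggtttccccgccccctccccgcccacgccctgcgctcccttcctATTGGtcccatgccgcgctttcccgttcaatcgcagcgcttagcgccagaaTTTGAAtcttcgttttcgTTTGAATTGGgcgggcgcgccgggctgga
CENPE (chr4:103198344-103198593, minus strand): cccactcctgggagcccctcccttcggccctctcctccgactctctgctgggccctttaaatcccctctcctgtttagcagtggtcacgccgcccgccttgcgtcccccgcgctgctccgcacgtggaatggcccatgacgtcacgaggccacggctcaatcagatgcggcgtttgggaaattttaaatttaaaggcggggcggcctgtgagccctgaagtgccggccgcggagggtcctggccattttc
NUF2 (chr1:163321704-163321953, plus strand): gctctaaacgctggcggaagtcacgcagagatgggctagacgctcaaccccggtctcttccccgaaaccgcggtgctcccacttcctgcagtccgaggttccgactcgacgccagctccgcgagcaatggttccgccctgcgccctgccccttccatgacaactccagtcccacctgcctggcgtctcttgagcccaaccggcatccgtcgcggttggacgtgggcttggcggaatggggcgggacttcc

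Depth was 23272126 to 28814911 reads per library over the listed genes, and no member had fewer than 167 reads in any library. METTL14 (gene 57721) stood at 14.1 and 12.5 RPKM (reads scaled by gene length and library size) in the NB4 control libraries and at 8.35 and 8.35 in the NB4 shM14 libraries. In MM6 it stood at 12.5 and 13.4 RPKM in controls and at 6.54 and 6.55 in shM14. The groups did not overlap in either line, and its log2 change was -0.61 (adjusted p = 0.0024) in NB4 and -0.88 (adjusted p = 0.088) in MM6. In the authors' deposited table its log2 fold change was -0.64 (adjusted p = 1.7e-16) in NB4 and -0.94 (adjusted p = 0.0049) in MM6. Replicates lay closer in NB4 than in MM6: over all genes, the SD of the log2 difference between replicates was 0.15 and 0.13 in NB4 controls and shM14, against 0.35 and 0.38 in MM6. The MM6 shM14 libraries stood apart from each other in the mitotic genes, with all 40 members lower in replicate 1 than in replicate 2 by a median log2 difference of -0.29, while 70.2% of all genes were lower there, by a median of -0.13. The MM6 controls differed in the same direction. There 32 of the 40 members were lower in replicate 1, by a median of -0.15, against 59.9% of all genes and a median of -0.06. Lineage markers went partly against the types the lines are known for. Of 5 promyelocyte granule genes, 4 were higher in MM6 controls than in NB4 controls and 1 was lower, at an adjusted p under 0.05 with limma. Over all genes tested these shares were 34.5% and 36.7%. The lower one was MPO, the promyelocyte peroxidase, at 2445 RPKM in NB4 controls and 86.4 in MM6. ELANE, another granule protein, was at 3.44 ± 4.80 RPKM (SD, n = 2) in NB4 controls, whose libraries differed widely in it. In MM6 controls it was at 1654 ± 78.2 RPKM (SD, n = 2). Of 7 monocyte genes, 4 were higher in MM6 controls and 3 lower. LYZ and CD14 were at 20.6 and 0.11 RPKM in NB4 controls and 7521 and 13.4 in MM6. The 3 lower ones were FCN1, at 0 in MM6 controls, CSF1R (4.15 RPKM in NB4, 1.36 in MM6) and ITGAM (5.23 and 2.77).

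The mitotic genes were transcribed at moderate to high levels in all 4 groups, and 20 of them were lower in MM6 controls than in NB4 controls. RPKM is scaled per length and per library, and levels were set beside each other between genes and between the 2 tables on that scale. Levels between the tables depend on the scaling. The median log2 difference of all genes between the control lines was -0.03 in RPKM and 0.03 under median-of-ratios scaling. In NB4 controls the members ran from UBE2C at 5.51 to TOP2A, the topoisomerase that untangles sister chromatids, at 99.6 RPKM, with a median of 35.5. In MM6 controls they ran from CDC25C at 4.03 to TOP2A at 102 RPKM, with a median of 27.7. TOP2A, MAD2L1 (87.4) and BUB3 (86.3) led in NB4 controls, and TOP2A, BUB3 (76.6) and UBE2C (65.9) in MM6 controls. Together the members held 0.566% and 0.556% of reads in the NB4 control libraries and 0.622% and 0.624% in NB4 shM14. In MM6 they held 0.423% and 0.453% in controls and 0.373% and 0.473% in shM14, so the shM14 libraries lay on both sides of the controls.

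Between the control groups, 20 of the 40 members were lower in MM6 and 2 were higher at an adjusted p under 0.05, in a model of all 8 libraries. Of the 12804 genes tested, 36.7% were lower and 34.5% higher, and the median log2 difference was -0.38 over the members against -0.03 over all genes. The widest gap below NB4 was that of KIF4A, a chromosome-bound kinesin, at 17.2 and 18.0 RPKM in NB4 and 6.55 and 7.74 in MM6 (log2 difference -1.20, adjusted p = 0.00013). ESPL1, the separase that cuts cohesin at anaphase, was at 16.6 and 17.7 RPKM in NB4 and 6.48 and 7.47 in MM6 (-1.19, adjusted p = 0.0001). MKI67 (gene 4288), the proliferation antigen that coats mitotic chromosomes, was at 50.1 and 50.1 RPKM in NB4 and at 25.3 and 24.0 in MM6 (-0.99, adjusted p = 8.7e-05). CCNB2 (-0.95) and PTTG1 (-0.88), the securin gene, followed. PTTG1 has near-identical copies, and how their reads were assigned is not stated. FOXM1, the transcription factor that drives late cell cycle genes, was also lower in MM6 (-0.80, adjusted p = 0.0016). TOP2A, NUSAP1, KIF20A, NUF2 and CDC20 had log2 differences between -0.03 and 0.07 and did not pass.

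UBE2C (gene 11065), the ubiquitin-conjugating enzyme that works with the anaphase-promoting complex, went the other way and was singled out after its values were seen. It was at 5.30 and 5.71 RPKM in NB4 controls and at 5.59 and 4.97 in NB4 shM14. In MM6 it was at 61.4 and 70.3 RPKM in controls and at 66.1 and 82.2 in shM14. The lines did not overlap in any library, with a control mean of 5.51 ± 0.29 RPKM (SD, n = 2) in NB4 and 65.9 ± 6.35 (SD, n = 2) in MM6, a 12.0-fold difference (log2 3.36, SE 0.13, adjusted p = 1.7e-06). BIRC5, the survivin subunit of the chromosomal passenger complex, was at 30.5 and 33.6 RPKM in NB4 controls and 40.5 and 44.8 in MM6 (log2 0.40, adjusted p = 0.047). BIRC5 missed the threshold with a pseudocount of 0.1 (adjusted p = 0.060), with no filter (0.056), and when any 1 of the 4 NB4 libraries or the 2 MM6 control libraries was left out (0.0715 to 0.196).

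**Figure D1:**
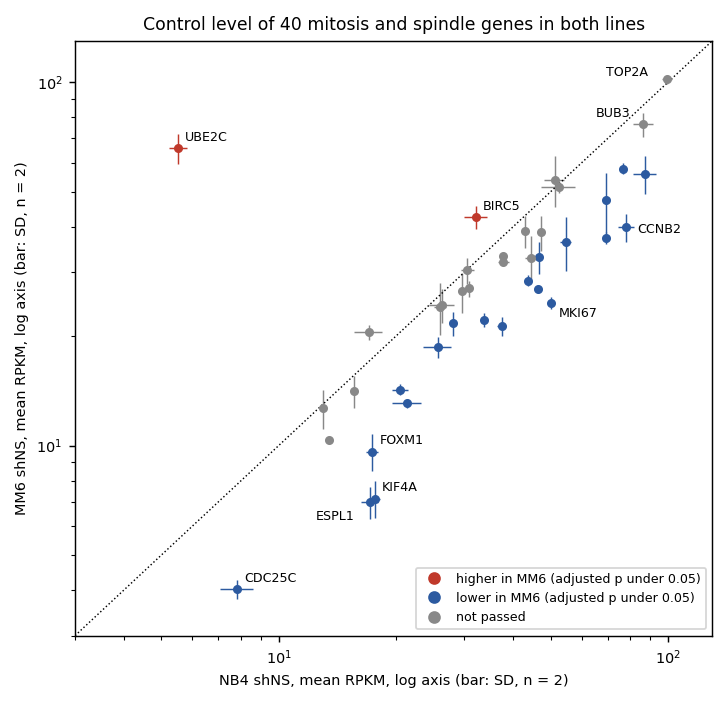
Mean RPKM of each of the 40 genes in MM6 controls (vertical, log axis) against NB4 controls (horizontal, log axis), with SD over 2 libraries and a dotted line of equal levels. The 20 blue genes were lower in MM6, and UBE2C stands alone at 5.51 RPKM in NB4 and 65.9 in MM6.

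With the METTL14 hairpin in NB4, 16 of the 40 members rose, 2 fell and 22 did not pass, by limma on the 2 shM14 and 2 shNS libraries. In NB4 many genes changed: 22.1% of the 11531 genes tested were higher and 25.2% lower. The share of members that rose was 40% and the share that fell 5.0%. The median log2 change of the members was 0.12, against -0.01 over all genes, and 29 members had a positive change. The rises were small, from 11.5% of the control mean RPKM for PRC1 to 42.0% for CENPA. In 26 members both shM14 libraries lay above both controls and in 6 both lay below, while over all genes tested these shares were 37.2% and 40%. Lack of overlap was thus common in NB4, and for genes called from the same libraries it is no separate support. By role, 3 of 7 cyclin, CDK1 and activator genes rose, 1 of 9 kinase and checkpoint genes, 3 of 6 centromere and kinetochore genes with 2 that fell, 3 of 7 spindle motors and binders, 0 of 4 anaphase genes, 5 of 5 central spindle and cytokinesis genes and 1 of 2 chromosome proteins. Differences between roles were not tested. Counts fell to 8 higher and 0 lower without shM14 replicate 1 (11.3% and 15.5% of all genes tested) and to 7 higher and 0 lower without shM14 replicate 2 (11.8% and 16.8% of all genes). Without shNS replicate 1 the count of lower members was 1 (CENPE), and a model of all 8 libraries, whose spread includes that of MM6, called 2 higher and 0 lower (5.57% and 7.38% of all genes). In the authors' deposited table, 23 members were higher and 3 lower in NB4 at an adjusted p under 0.05, against 22.1% and 21.5% of its 16726 genes, and all 18 called here were among them in the same direction.

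In bulk RNA, a different share of cells in mitosis and a different amount of RNA per cell cannot be told apart. The summed RPKM of 7 monocyte markers moved with the same groups: it was 48.4 to 49.5 in NB4 controls and 126 in both shM14 libraries. Most of that difference came from LYZ (20.6 to 84.0 RPKM). Of the 6 tested 5 rose, CD36 (0.26 to 4.29 RPKM) with the largest log2 change, and FCN1 did not pass (-0.05). CD14, a defining monocyte marker, was at 0.11 RPKM in controls and 0.84 in shM14. The summed RPKM of 5 promyelocyte granule genes was 2567 to 2666 in controls and 2318 to 2361 in shM14, with 1 riser and 3 that fell. The summed RPKM of 4 lymphoid genes, nearly all from CD3D and NKG7, was 76.2 to 79.4 in controls and 115 to 117 in shM14. The part of these markers in the mitotic result was not tested.

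**Figure D2:**
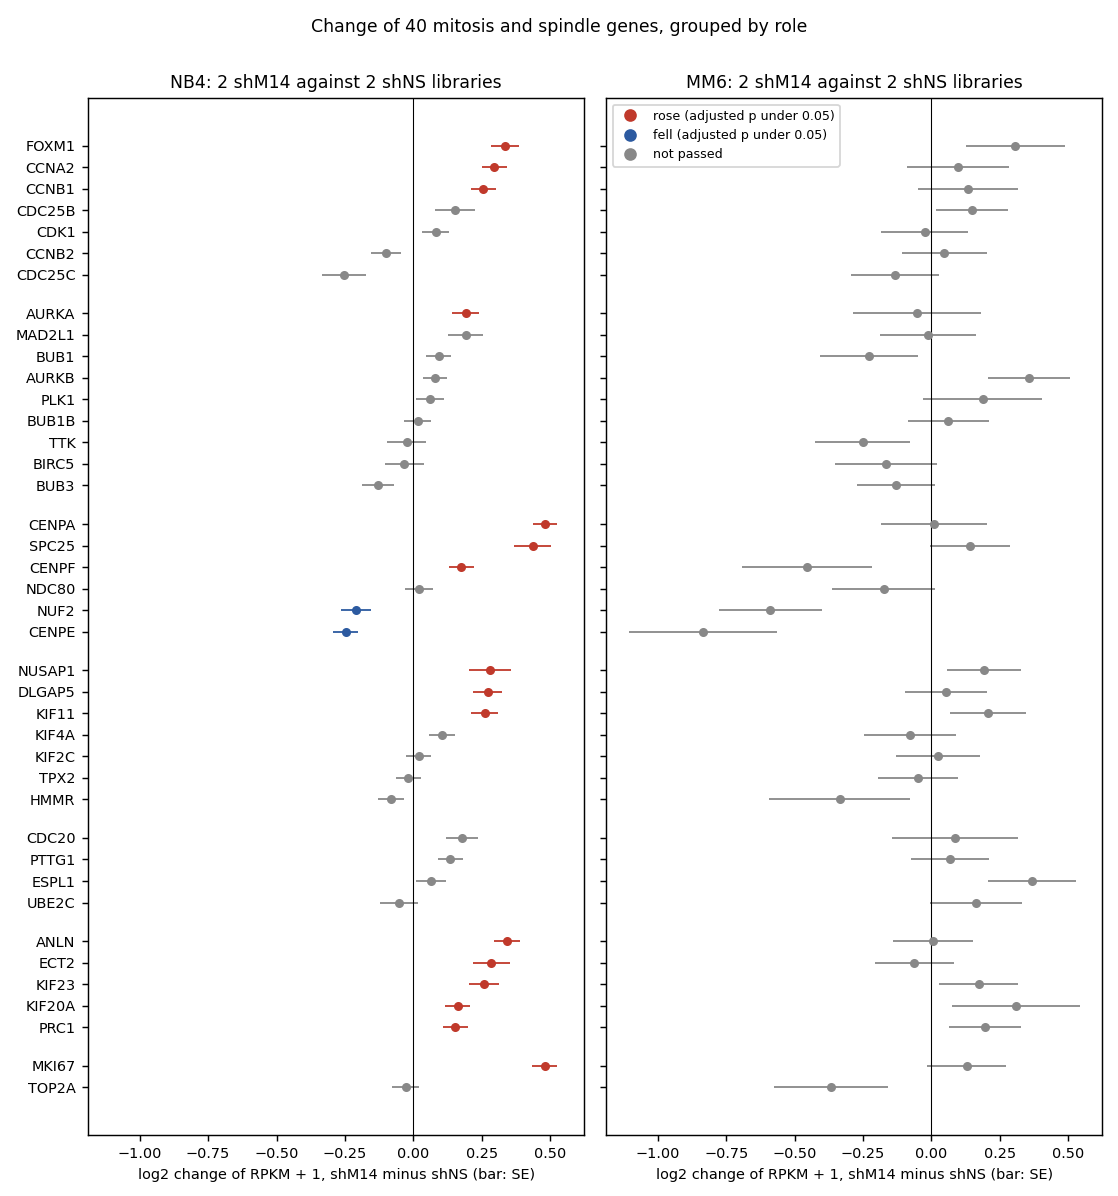
Log2 change of RPKM + 1 (horizontal, with SE) of each gene in NB4 (left) and MM6 (right), grouped by role from cyclins and activators at the top to chromosome proteins at the bottom. Red marks the 16 genes that rose in NB4 and blue the 2 that fell, and no gene passed in MM6.

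Among the cyclins and activators, CCNA2, the cyclin of S phase and mitotic entry, was at 47.7 and 46.6 RPKM in NB4 controls and at 58.1 and 58.1 in shM14. Its groups did not overlap and it rose by a log2 of 0.30 (SE 0.05, adjusted p = 0.0062). CCNB1, the main partner of CDK1, was at 68.6 and 70.3 RPKM in controls and 84.3 and 82.0 in shM14, a rise of 0.26 (SE 0.05, adjusted p = 0.011). FOXM1 was at 17.0 and 17.8 RPKM in controls and 21.9 and 22.5 in shM14, a rise of 0.33 (SE 0.05, adjusted p = 0.0059). CDK1 itself was at 46.9 and 46.4 RPKM in controls and 50.5 and 48.3 in shM14. Its groups did not overlap, but the change of 0.08 did not pass (adjusted p = 0.22). CCNB2, the second B-type cyclin, lay lower in both shM14 libraries (-0.10, adjusted p = 0.19), as did CDC25C, a CDK1-activating phosphatase (-0.25, adjusted p = 0.052), and neither passed. CDC25C did pass in the authors' deposited table (log2 fold change -0.26, adjusted p = 0.016). CDC25B had a change of 0.15 (adjusted p = 0.15).

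Of the mitotic kinases and checkpoint genes only AURKA, the kinase of spindle poles, passed in NB4. It was at 45.6 and 43.3 RPKM in controls and 50.7 and 51.1 in shM14, a rise of 0.19 (SE 0.05, adjusted p = 0.029). PLK1, the polo kinase of mitotic entry and cytokinesis, was at 53.4 and 55.8 RPKM in controls and 55.7 and 58.3 in shM14, and its groups overlapped (0.06, adjusted p = 0.37). BUB3, the most abundant of these genes by its mean over all 8 libraries (77.9 RPKM, against 74.7 for MAD2L1), was at 89.9 and 82.8 RPKM in controls and 80.3 and 77.3 in shM14. BUB3 holds checkpoint proteins at kinetochores, and its change of -0.13 did not pass (adjusted p = 0.13). MAD2L1, the checkpoint inhibitor of CDC20, had a change of 0.19 (adjusted p = 0.062). BUB1 (0.09), AURKB (0.08), BUB1B (0.02), TTK (-0.02) and BIRC5 (-0.03) did not pass, and the signs of BUB1B, TTK and BIRC5 turned when single libraries were left out.

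The centromere and kinetochore genes split. CENPA (gene 1058), the histone variant that marks centromeres, was at 15.5 and 15.7 RPKM in NB4 controls and 22.4 and 22.0 in shM14, a rise of 0.48 (SE 0.04, adjusted p = 0.0016). SPC25, a subunit of the NDC80 complex that grips microtubules, was at 27.1 and 24.1 RPKM in controls and 35.3 and 34.6 in shM14, a rise of 0.44 (SE 0.07, adjusted p = 0.0068). CENPF, a large kinetochore protein, was at 31.1 and 30.6 RPKM in controls and 34.7 and 35.2 in shM14, a rise of 0.18 (SE 0.05, adjusted p = 0.028). NUF2 (gene 83540) belongs to the same 4-subunit complex as SPC25 but fell, from 31.3 and 29.7 RPKM to 26.9 and 25.6 (-0.21, SE 0.05, adjusted p = 0.029). CENPE (gene 1062), the kinesin that moves chromosomes to the spindle equator, fell from 13.5 and 13.4 RPKM to 11.0 and 11.4 (-0.25, SE 0.05, adjusted p = 0.011). In none of these 5 genes did the shM14 libraries overlap with the controls. NDC80, which pairs with NUF2, was at 30.0 and 29.1 RPKM in controls and 30.8 and 29.1 in shM14, and its change of 0.02 did not pass (adjusted p = 0.76). The calls of CENPE and NUF2 were lost without shM14 replicate 1 (adjusted p = 0.082 and 0.076) and without shM14 replicate 2 (0.05 and 0.16), and that of NUF2 also without shNS replicate 1 (0.081).

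**Figure D3:**
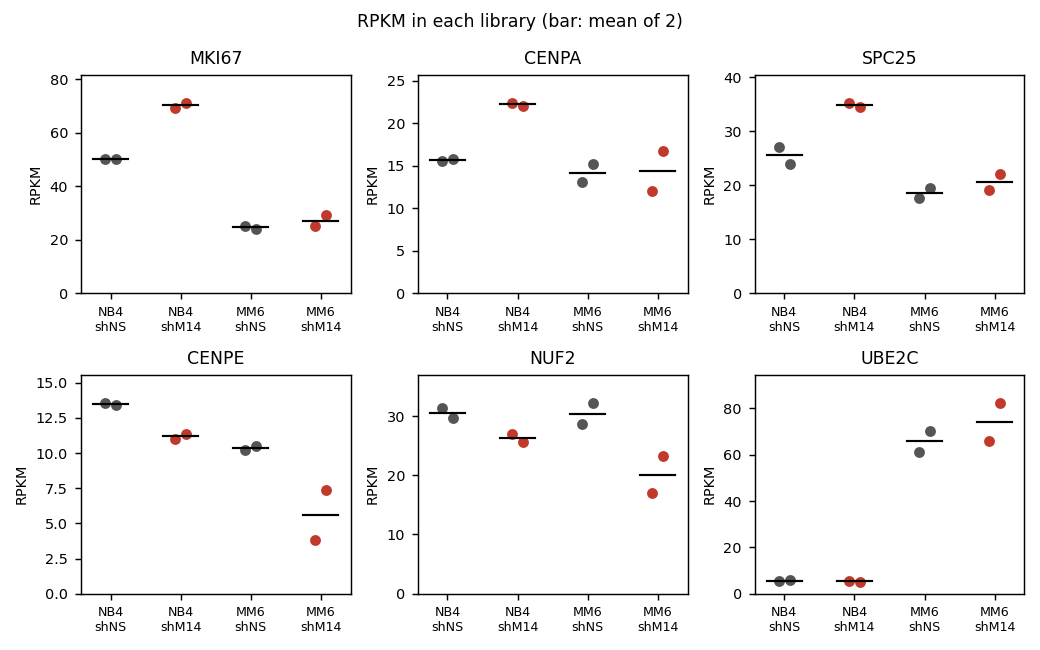
RPKM (vertical, from 0) of 6 genes in each library, with a bar at the mean of 2 and shM14 libraries in red. MKI67, CENPA and SPC25 lie higher in NB4 shM14, CENPE and NUF2 lie lower in shM14 of both lines, and UBE2C separates the lines.

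Among the spindle motors and microtubule binders, 3 of 7 rose in NB4. NUSAP1, which bundles spindle microtubules, was at 56.1 and 48.6 RPKM in controls and 63.4 and 63.9 in shM14 (0.28, SE 0.08, adjusted p = 0.035). DLGAP5, which stabilises kinetochore fibres, was at 28.0 and 27.9 RPKM in controls and 32.9 and 35.0 in shM14 (0.27, SE 0.05, adjusted p = 0.012). KIF11, the kinesin that pushes spindle poles apart, was at 38.1 and 36.7 RPKM in controls and 44.2 and 45.7 in shM14 (0.26, SE 0.05, adjusted p = 0.012). The groups of these 3 genes did not overlap, where 37.2% of all genes tested lay apart in this direction. TPX2, the most abundant of the 7 and the activator of AURKA on the spindle, was at 76.4 and 76.5 RPKM in controls and 76.6 and 74.3 in shM14. Its change of -0.02 did not pass (adjusted p = 0.76) and was 0.01 under median-of-ratios scaling. KIF4A (0.10), KIF2C (0.02) and HMMR (-0.08) did not pass.

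All 5 genes of the central spindle and cytokinesis rose in NB4. ANLN, the scaffold of the contractile ring, was at 37.4 and 38.1 RPKM in controls and 47.3 and 49.1 in shM14 (0.34, SE 0.05, adjusted p = 0.0046). ECT2, which activates the small GTPase RhoA at the cleavage site, was at 18.0 and 16.0 RPKM in controls and 21.2 and 20.7 in shM14 (0.28, SE 0.07, adjusted p = 0.023). KIF23, a subunit of centralspindlin, was at 21.2 and 19.8 RPKM in controls and 25.2 and 24.2 in shM14 (0.26, SE 0.06, adjusted p = 0.017). No shM14 library of these genes overlapped with a control, where 37.2% of all genes tested lay apart in this direction. KIF20A, the kinesin that carries the passenger complex to the central spindle, was at 12.9 and 13.0 RPKM in controls and 14.9 and 14.3 in shM14 (0.16, SE 0.05, adjusted p = 0.041). PRC1, the most abundant of the 5, crosslinks antiparallel microtubules and was at 46.7 and 46.0 RPKM in controls and 52.3 and 51.1 in shM14 (0.15, SE 0.05, adjusted p = 0.043). Both groups were again apart. The calls of ECT2, KIF23, KIF20A and PRC1 were lost without shM14 replicate 1 (adjusted p = 0.091, 0.095, 0.24 and 0.24) and without shM14 replicate 2 (0.065, 0.051, 0.12 and 0.15), so that only ANLN stayed called there. Those of KIF20A and PRC1 were also lost without shNS replicate 1 (0.088 and 0.069) or shNS replicate 2 (0.072 and 0.089), and that of PRC1 with a pseudocount of 0.1 (0.056).

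The anaphase genes did not pass in NB4. PTTG1 was at 68.7 and 69.8 RPKM in controls and 76.7 and 75.6 in shM14 (0.14, adjusted p = 0.058). CDC20, the activator of the anaphase-promoting complex, was at 49.0 and 53.3 RPKM in controls and 58.1 and 57.8 in shM14 (0.18, adjusted p = 0.054). Both lay higher in every shM14 library, and both passed in the authors' deposited table (adjusted p = 0.0020 and 0.00039). ESPL1 had a change of 0.06 and UBE2C one of -0.05. Of the chromosome proteins, MKI67 was at 50.1 and 50.1 RPKM in controls and 69.4 and 71.1 in shM14, a rise of 0.48 (SE 0.05, adjusted p = 0.0017). TOP2A was at 102 and 97.5 RPKM in controls and 96.7 and 98.5 in shM14, and its groups overlapped (-0.03, adjusted p = 0.66, and 0.0023 under median-of-ratios scaling). MKI67 and SPC25 were the 2 members called under every alternative run. CENPA, ANLN, FOXM1 and CCNA2 were called under all of them but the model of all 8 libraries, and none of the 18 called members changed sign under any of these.

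In MM6 no member passed: 0 of 40, where limma called 0.0504% of the 11895 genes tested higher and 0.0252% lower. At an unadjusted p under 0.05 there were 2, NUF2 and CENPE, and voom on the recovered reads called 0. The authors' deposited table called 0 higher and 0 lower, against 1.58% and 1.69% of its genes. The median log2 change of the members was 0.04, with 23 positive, against -0.03 over all genes. In 8 members both shM14 libraries lay above both controls and in 4 both lay below, where 19.0% and 25.8% of all genes tested did so. The median was 0.17 without shM14 replicate 1 and -0.12 without shM14 replicate 2. The summed RPKM of the 7 monocyte markers was 5902 to 9303 in MM6 controls and 8291 to 14545 in shM14. Nearly all of it came from LYZ, whose change of 0.56 did not pass (adjusted p = 0.53). None of the 6 tested markers passed with limma, 5 with a positive change and CD68 with a negative one (-0.27, adjusted p = 0.78). The largest changes were those of CD36 (2.81, adjusted p = 0.092) and CD14 (1.77, adjusted p = 0.096). CD36 went from 9.95 ± 2.84 to 81.3 ± 47.2 RPKM (SD, n = 2). In the model common to both lines, 5 of the 7 markers were called higher and 0 lower with limma. Over all genes tested these shares were 4.80% and 7.10%. The part of these markers in the mitotic result was not tested.

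The largest differences in MM6 were again those of kinetochore genes. CENPE was at 10.2 and 10.5 RPKM in MM6 controls and at 3.84 and 7.36 in shM14, and NUF2 at 28.6 and 32.2 in controls and 17.0 and 23.2 in shM14. Both shM14 libraries were below both controls, with replicate 1 the lowest. The log2 change of CENPE was -0.84 (95% interval -1.51 to -0.16, adjusted p = 0.25) and that of NUF2 was -0.59 (-1.06 to -0.12, adjusted p = 0.25). In the authors' deposited table CENPE had a log2 fold change of -0.87 in MM6 with an adjusted p of 0.053. CENPF was at 28.0 and 26.1 RPKM in controls and 15.3 and 24.7 in shM14, and TOP2A at 99.7 and 104 in controls and 64.9 and 95.2 in shM14. The shM14 libraries of both lay below the controls, most of all replicate 1, and the changes of -0.46 (adjusted p = 0.45) and -0.37 (adjusted p = 0.50) did not pass. On the higher side, AURKB, the kinase of the passenger complex, was at 21.5 and 22.8 RPKM in controls and 26.2 and 31.4 in shM14 (0.36, adjusted p = 0.35). ESPL1 was at 6.48 and 7.47 RPKM in controls and 8.33 and 10.3 in shM14 (0.37, adjusted p = 0.37). FOXM1 was at 8.84 and 10.4 RPKM in controls and 10.5 and 13.9 in shM14 (0.31, adjusted p = 0.52). These 3 genes did not overlap between groups, though the nearest FOXM1 values were close. Of all genes tested, 19.0% lay apart in this direction.

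The members that led in NB4 were spread over both shM14 libraries in MM6. MKI67 was at 25.3 and 24.0 RPKM in MM6 controls and 25.0 and 29.3 in shM14, and CENPA at 13.1 and 15.2 in controls and 12.0 and 16.7 in shM14. SPC25 was at 17.7 and 19.6 RPKM in controls and 19.2 and 22.2 in shM14. In all 3 genes the groups overlapped. CCNB1 was at 41.1 and 53.7 RPKM in controls and 47.9 and 55.7 in shM14, CDK1 at 30.6 and 35.3 in controls and 29.6 and 35.3 in shM14, and PLK1 at 32.0 and 40.8 in controls and 34.9 and 48.8 in shM14. Replicate 1 was the lower library of these 3 genes in both groups. KIF11 (22.3 and 20.4 in controls, 23.5 and 26.0 RPKM in shM14) and PRC1 (27.5 and 26.5, then 30.0 and 32.2) were among the 8 members whose shM14 libraries both lay above the controls.

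**Figure D4:**
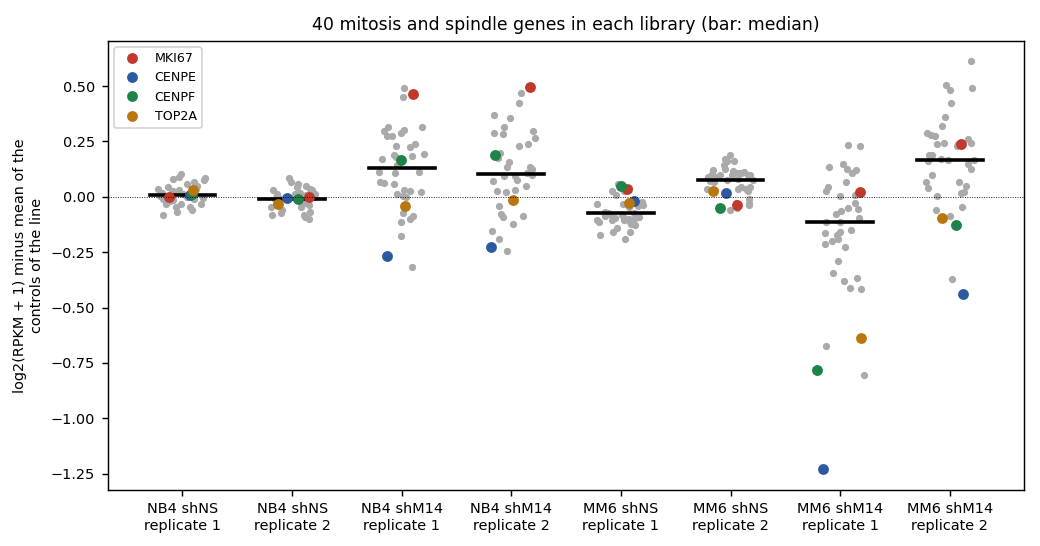
Log2(RPKM + 1) of each of the 40 genes minus the mean of the controls of its line (vertical), by library, with a bar at the median. Both NB4 shM14 libraries have medians of 0.13 and 0.10, while the MM6 shM14 libraries have medians of -0.12 and 0.17, and CENPE is the lowest gene of MM6 shM14 replicate 1.

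In the model common to both lines, no member passed with limma, while 4.80% of the 12804 genes tested were higher and 7.10% lower. At an unadjusted p under 0.05 there were 10 members. The smallest adjusted p-values were those of KIF11 (log2 0.23, adjusted p = 0.060), FOXM1 (0.32, 0.064), NUF2 (-0.40, 0.067), MKI67 (0.30, 0.071) and NUSAP1 (0.24, 0.076). Without MM6 shM14 replicate 1, 6 members were called higher and 1 lower: MKI67, CENPA, FOXM1, SPC25, KIF11 and KIF23 rose and CENPE fell. In that fit 4.12% of all genes tested were higher and 5.26% lower. Median-of-ratios scaling also called 6 higher and 1 lower, against 6.41% and 7.57% of all genes, and voom called 4 and 1, against 6.58% and 10.2%.

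The difference between the lines, MM6 change minus NB4 change, passed for no member with limma, and for 1.53% of all genes tested in the positive and 1.39% in the negative direction. At an unadjusted p under 0.05 there were 3 members, MKI67 (-0.35, 95% interval -0.67 to -0.04, adjusted p = 0.21), ANLN (-0.34, adjusted p = 0.25) and ECT2 (-0.35, adjusted p = 0.25), and voom called 0. The 6 centromere and kinetochore genes all had a negative difference, with a median of -0.43, against -0.11 over the 40 members and -0.02 over all genes. This sign was not particular to them, as 30 of the 40 members had it. Among other mitotic genes, listed further on, 85 of 112 had it (median -0.13). These included 14 of 18 outer kinetochore genes (median -0.16) and 16 of 20 condensin and cohesin genes (median -0.22). The median over the 40 members was 0.019 without MM6 shM14 replicate 1, -0.28 without MM6 shM14 replicate 2 and -0.23 without MM6 shNS replicate 1. Without MM6 shM14 replicate 2, CENPA, CENPE, CENPF and TOP2A were called lower, where 2.50% of all genes tested were higher and 3.35% lower. Across the 40 members, the changes in the 2 lines, which share no library, had a Pearson correlation of 0.54 as a description. A positive change in both lines was seen for 21 members and a negative one in both for 9, among them CENPE and NUF2. Of the 16 members that rose in NB4, 13 had a positive change in MM6. The correlation and these counts were not set beside the same figures over all genes, so whether they are particular to the mitotic genes was not tested.

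The other genes of the mitotic machinery were read from 5 lists with 112 tested genes. In NB4, 31 of the 112 rose (27.7%) and 15 fell (13.4%), against 22.1% and 25.2% of all genes tested. Among 18 other outer kinetochore genes 8 rose (44.4%) and 2 fell (11.1%). SKA1, which couples kinetochores to microtubule ends, rose from 8.96 ± 0.32 to 12.3 ± 0.40 RPKM (SD, n = 2, adjusted p = 0.0033), and TRIP13, which recycles checkpoint complexes, from 23.1 ± 0.57 to 30.3 ± 0.49 (SD, n = 2, adjusted p = 0.0035). KNTC1 (-0.32) and DSN1 (-0.32) fell. Among the 17 genes of the inner centromere network 4 rose and 4 fell (23.5% each), shares near those of all genes. CENPH fell from 54.8 ± 0.25 to 31.8 ± 0.96 RPKM (SD, n = 2), a log2 change of -0.77 (adjusted p = 0.00064), while CENPN rose by 0.47 (adjusted p = 0.0034).

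Of 20 condensin and cohesin genes 4 rose (20.0%) and 2 fell (10.0%), against 22.1% and 25.2% of all genes tested. NCAPG2 (0.30) and NCAPH (0.28), both condensin subunits, rose, and SMC4, the condensin ATPase, fell (-0.29, adjusted p = 0.010). Of 17 genes of the anaphase-promoting complex and its regulators 4 rose (23.5%) and 2 fell (11.8%). FBXO5, its inhibitor, rose by 0.29 (adjusted p = 0.0076), and the subunit CDC16 fell by 0.33 (adjusted p = 0.0042). Of 40 other spindle, centrosome and cytokinesis genes 11 rose (27.5%) and 5 fell (12.5%). TUBG1, the gamma-tubulin that nucleates microtubules, rose by 0.64 (adjusted p = 0.00085), and HAUS4, a subunit of the augmin complex, fell by 0.63 (adjusted p = 0.0019). In MM6 none of these 112 genes passed with limma. In the model common to both lines 3 of the 112 fell (2.68%) and none rose, against 7.10% and 4.80% of all genes tested. They were CENPH (-0.83, adjusted p = 0.0057), CENPU (-0.35, adjusted p = 0.033) and CDC23 (-0.29, adjusted p = 0.034).

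**Figure D5:**
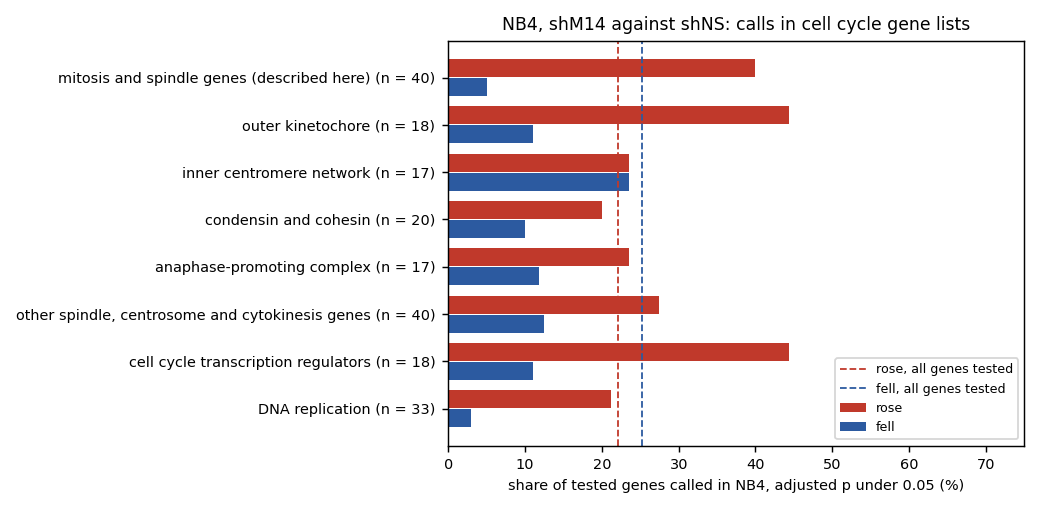
Share of tested genes (horizontal, %) that rose (red) or fell (blue) in NB4 in 8 lists, with dashed lines at the shares over all genes tested. Those shares were 22.1% and 25.2%. The 40 genes described here had 40% that rose and 5.0% that fell, the outer kinetochore list 44.4% and 11.1%, and the DNA replication list 21.2% and 3.03%.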

How the data were processed

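Poly(A) RNA was sequenced in 8 libraries, single-end with 50 bp reads, from 100 ng of total RNA, per the labels. The strand of counting, the aligner, the counter and the build were not given in the sources used here. Each line has 1 table, deposited by the authors. Its RPKM values per library were, as deposited, reads scaled by gene length and library size, a unit worked out from the values. The signal columns were the authors' group means of reads divided by size factors. The authors also deposited a ratio (fold change), its log2 value, and p-values with adjusted p-values, per the file headers. Whole reads were recovered for 100% of 133808 RPKM values within 0.01 and gave the depth.

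Genes reaching 1 RPKM in 2 libraries were fitted as log2(RPKM + 1) with limma 3.58.1 (R 4.3.3), with Benjamini-Hochberg adjustment over all genes tested and a threshold of 0.05. A fold on this scale understates changes of low genes. The fits were tested on simulated data. NB4 and MM6 were fitted alone; the common change, the line difference and the control lines used all 8 libraries. Adjusted p-values and changes in the text are from limma unless the authors' table is named. Alternatives were a pseudocount of 0.1, no filter, an RPKM of at least 5, a replicate block, median-of-ratios scaling, a variance trend, voom, 1 model of all 8 libraries for each line, and each library left out.

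The members, lists and tests were chosen with earlier results of these data known. Values per library are given for members that passed, for the most abundant of each role, and for MKI67, CDK1, CCNB1 and PLK1; from each other list up to 4 genes with the smallest p in NB4 and 2 in MM6 could be named. A few other members are given where they were largest or nearest the threshold, chosen after their values were seen. Figures were made with matplotlib 3.10.9.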

Additional observations from a re-analysis of the deposited data

Results flagged for a closer look

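The difference between the lines was tested for the genes of the lists beside the mitotic ones, and 4 passed with limma, none of them a mitotic gene. Over all genes tested 1.53% passed in the positive and 1.39% in the negative direction. CDKN1C, a CDK inhibitor, had an MM6 change minus NB4 change of 0.96 on the log2 scale, with a change of -0.51 in NB4. ITGA2B, a megakaryocyte integrin, had a difference of 1.02, with a change of -1.13 in NB4. NKG7, a lymphoid granule gene, had a difference of -0.94 (adjusted p = 0.012), with 0.84 in NB4 and -0.10 in MM6. PRTN3, a granule protease, had a difference of -1.11 (adjusted p = 0.012), with 1.48 in NB4 and 0.38 in MM6. CDKN1C passed the filter through NB4 controls alone (1.69 RPKM, with 0.88 in NB4 shM14, 0.25 in MM6 controls and 0.71 in MM6 shM14), so its difference rests on values under the minimum of 1 RPKM and is given as a value only. ITGA2B passed the filter through NB4 alone (6.08 RPKM in controls and 2.24 in shM14). It was under that minimum in both MM6 groups (0.24 and 0.15 RPKM), so its difference is also given as a value only.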

How the results depend on the processing

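In NB4 the 18 calls (16 higher, 2 lower) became 24 (20 and 4) with voom, which called 26.4% of all genes higher and 28.5% lower, and 2 (2 and 0) in 1 model of all 8 libraries. Leaving out 1 library gave 7 to 16 calls, 7 to 15 higher and 0 to 3 lower. Members with changes near 0 turned sign: under median-of-ratios scaling TTK had 0.0048, TPX2 0.011 and TOP2A 0.0023, and with 1 library left out BIRC5 ran from -0.101 to 0.034, BUB1B from -0.016 to 0.047, NDC80 from -0.018 to 0.061, TOP2A from -0.059 to 0.0023, TPX2 from -0.041 to 0.0036, TTK from -0.10 to 0.050 and UBE2C from -0.12 to 0.020.

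In MM6 the count stayed at 0 under each alternative but the block. The labels give replicate numbers but state no pairing. The deviations of same-numbered libraries had a correlation of 0.08 in NB4 (11531 genes) and 0.70 in MM6 (11895 genes). With the replicate block, 2 members were called in MM6, both lower, CENPE (adjusted p = 0.043) and NUF2 (adjusted p = 0.031), 17 in NB4, 1 in the common model (FOXM1 higher) and 0 in the line difference. In MM6 the block called 5% of all genes tested higher and 6.81% lower, against 0 and 2 of the 40 members. Its shares over all genes were 21.1% higher and 24.4% lower in NB4 and 4.69% and 6.65% in the common model. In the line difference they were 4.55% and 4.38%.

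The common model called 0 members, but 1 higher with no filter and 1 higher with a variance trend (KIF11 in both). Over all genes tested those settings called 3.78% and 5.05% higher and 5.43% and 7.05% lower. Median-of-ratios scaling called 7 members (6 higher, 1 lower) and voom 5 (4 higher, 1 lower), with the shares over all genes given above. The median log2 change of the members in the common model ran from 0.024 to 0.17 with 1 library left out. For the line difference that median ran from -0.28 to 0.019. Between the control lines 2 members were higher, but 1 with a pseudocount of 0.1 and 1 with no filter. Those settings called 34.0% and 30.2% of all genes tested higher. The median log2 difference of the members between the control lines ran from -0.43 to -0.31 with 1 library left out.

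With 2 libraries per group, the SE of the MKI67 change was 0.05 in NB4 and 0.14 in MM6. The smallest change that the MM6 libraries could show was not tested.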

Other observations

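Regulators upstream of the mitotic genes were read from a list of cell cycle transcription regulators, of which 8 of 18 tested rose in NB4 (44.4%) and 2 fell (11.1%), against 22.1% and 25.2% of all genes tested. MYBL2, the partner of MuvB in late cell cycle transcription, rose from 85.8 ± 2.14 to 121 ± 0.15 RPKM (SD, n = 2, adjusted p = 0.0017). RB1, the retinoblastoma protein, rose by 0.32 on the log2 scale in NB4 (adjusted p = 0.0071), where its control level was 24.5 RPKM against 2.60 in MM6. TFDP2, a partner of E2F factors, fell by 0.62 in NB4 (adjusted p = 0.00088) and by 0.57 in the model common to both lines (adjusted p = 0.011). RRM2, part of ribonucleotide reductase, which makes deoxynucleotides, rose by 0.52 in NB4 (adjusted p = 0.0013) and by 0.52 in the common model (adjusted p = 0.0052). CCNE1, the cyclin of S-phase entry, rose by 0.48 in NB4 (adjusted p = 0.0018) and by 0.45 in the common model (adjusted p = 0.024). Of the DNA replication list 7 of 33 rose in NB4 (21.2%), a share near that of all genes, and 1 (3.03%), the licensing factor CDT1, fell (-0.33, adjusted p = 0.0073). In MM6 alone no gene of these lists passed with limma.

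Between the control lines 3 of 8 CDK inhibitors were higher in MM6 and 3 lower, near the shares of all genes (34.5% and 36.7%). CDKN2A was at 99.4 ± 10.8 RPKM (SD, n = 2) in MM6 controls and 0.0078 in NB4 controls, and CDKN2C was at 45.7 ± 0.86 in MM6 and 9.39 ± 0.34 in NB4 (SD, n = 2). CDKN2D, an inhibitor of CDK4 and CDK6, rose by 0.69 in NB4 (adjusted p = 0.0040) and by 0.56 in the common model (adjusted p = 0.017).

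Over the 8 libraries, centred within each line, the genes outside the list most like the mean of the 40 mitotic genes were MT1G (Pearson r = 0.993), DDX20 (0.992), RECQL4 (0.990), CIAPIN1 (0.988) and S100PBP (0.984), among 8391 genes with a mean RPKM of at least 5. These correlations describe 8 libraries that share the difference between the MM6 shM14 replicates.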
